A study of Mus musculus with 12 samples.

Results

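The nuclear genes for the subunits of the mitochondrial respiratory chain were followed in the cortex of 3 groups of mice. Members were the genes whose name on the Agilent array begins, for complex I, with Nduf and a subunit letter (a, b, c, s or v), for complex II with Sdh, for complex III with Uqcr, for complex IV with Cox4 to Cox8 and for complex V with Atp5. The name pattern uses no expression value, but it was chosen with earlier results of these data known. There were 83 such genes of 29608 gene names on the array, 36 in complex I, 4 in complex II, 8 in complex III, 18 in complex IV and 17 in complex V. Complexes were assigned by name and not by where the protein sits, which holds also for Ndufa4 in complex I and Cox7a2l in complex IV. They were read by 133 spots of 124 different probes. After spots that were dim or marked as faulty in any mouse were removed, 79 members remained among 17302 quantified genes, of which 50 rested on 1 spot. The 4 that did not pass were Cox8c and Cox7b2, which were dim, and Sdha and Ndufa6, whose bright spots were marked as faulty.

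The respiratory chain moves electrons from NADH through complex I, or from succinate through complex II, to ubiquinone, then through complex III and cytochrome c to complex IV, where oxygen is reduced to water. Complexes I, III and IV pump protons across the inner mitochondrial membrane, and complex V lets them flow back to make ATP. Neurons depend heavily on this pathway. Most subunits are encoded in the nucleus, a small core set in mitochondrial DNA, and several complex IV subunits exist as paired isoforms, 1 broadly expressed and 1 known from heart and skeletal muscle.

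All 12 mice were adult females, 4 in each group. MRL/lpr mice carry the lpr mutation of Fas on the MRL background and develop lupus-like autoimmunity. The group called Fn14ko here and Fn14koMRL in the labels consisted, per the study's methods, of MRL/lpr littermates made deficient in Fn14, the receptor for the cytokine TWEAK, by backcrossing, so that the loss of Fn14 was added to lpr. MRL/+ mice, labelled MRL/MpJ, have the same background without lpr and were the control. The labels name no drug for any group, and by the methods all mice were killed in diestrus. By the methods the control mice came from another supplier than the other 2 groups, so source and group cannot be told apart there. The 2 mice on an array always belonged to 1 group, with odd replicate numbers labelled with Cy3 and even numbers with Cy5. A slide carried arrays of a single group, and the slide therefore cannot be told apart from the group either. The comparisons share samples: MRL/+ is the control of 2 of them and MRL/lpr enters 2. In tissue RNA, fewer cells of a type and less RNA per cell cannot be told apart. Of the marker genes listed for cortical excitatory neurons 10 of 10 were quantified, while brown fat had 1 of 5 and muscle 4 of 10.

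Signals below are background-corrected intensities divided by the median spot of that mouse, so that 1 is the level of the median spot. They compare mice for 1 gene and do not rank genes, since probes differ in brightness. Differences are on the log2 scale, first group minus second, with the standard error (SE) and adjusted p of limma over all 17302 genes. A gene was called when that p was below 0.05. Cox6b2, Cox6c, Cox7a2l, Cox7b, Ndufa9, Ndufa11, Ndufc1, Ndufs4 and the genes of other lists were named after their values were seen. Exact permutation tests of 4 mice against 4 are 2-sided and cannot go below p = 0.0286.

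Stretches of 5 probes are shown because the results turn on them: a probe that was printed 10 times and serves to check position on the array, the only Cox6a2 probe, and the 2 overlapping Cox7c probes with the third, which lies apart from them. Capitals mark the 16 bases that the overlapping Cox7c probes share. Each line gives 30 of the 60 bases of a probe, with the mm9 position of the whole probe.
Uqcrc2, chr7:127802599-127802658, plus strand, first 30 bases: cttttctcgacgagttataacacatgcgtg
Cox6a2, chr7:135349160-135349219, minus strand, first 30 bases: agcaatcttcaaattggccttctgcacacc
Cox7c, chr13:86184447-86184506, minus strand, last 30 bases: taaactcttgaactCTTATACTAGAAAAAA
Cox7c, chr13:86184403-86184462, minus strand, first 30 bases: CTTATACTAGAAAAAAttgtaaataaacta
Cox7c, chr13:86186301-86186360, minus strand, first 30 bases: tgtagaaaggagagttaggtggtacggcca

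The promoters of these genes were also read, because nuclear respiratory genes are known for sites of NRF1 and of the ETS factor GABPA. RefSeq promoters of GRCm38.p6, from 250 bases before to 50 after the start, matched 68 of the 83 members. The NRF1 core, whose matches are the capitalised runs that begin and end with GCGC in the Cox6a1 stretch given below, was searched like the other motifs on both strands. It was present in 17 of the 68 (25%) and in 5.188% of all 27025 genes with a promoter, a gene counting when any of its promoters matched. The members' promoters were richer in G and C, with a median of 57.33% against 52.67% over all genes. The part of this in the shares given here was not tested. The ETS core CCGGAAG was in 25% of the members and 9.928% of all genes, and the YY1 core AAGATGGC in 14.71% and 3.19%. The estrogen-related receptor half-site TCAAGGTCA was found in 2 members (2.941%) and in 0.4662% of all genes. A GC box, GGGCGG, was in 41.18% of the members and 38.2% of all genes, and TATAAA in 11.76% and 15.67%. These motifs do not contain each other, but single matches could overlap. Among the complexes the NRF1 core was in 6 of 15 complex V promoters and in 1 of 13 of complex IV, that of Cox6a1. The 250 bases before the start are shown for Cox6a1, the broadly expressed form of subunit VIa, and for Cox7c, 1 of the 2 members called below. Capitals mark matches to any of the 6 motifs on either strand, of which the Cox7c stretch has none. A match is a description of the letters and not a bound site.
Cox6a1, chr5:115348959-115349208, minus strand: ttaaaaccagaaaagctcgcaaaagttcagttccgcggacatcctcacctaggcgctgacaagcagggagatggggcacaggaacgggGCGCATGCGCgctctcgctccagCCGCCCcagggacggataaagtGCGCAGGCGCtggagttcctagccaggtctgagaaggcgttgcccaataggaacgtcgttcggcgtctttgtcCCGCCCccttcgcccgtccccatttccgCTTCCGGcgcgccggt
Cox7c, chr13:86046796-86047045, minus strand: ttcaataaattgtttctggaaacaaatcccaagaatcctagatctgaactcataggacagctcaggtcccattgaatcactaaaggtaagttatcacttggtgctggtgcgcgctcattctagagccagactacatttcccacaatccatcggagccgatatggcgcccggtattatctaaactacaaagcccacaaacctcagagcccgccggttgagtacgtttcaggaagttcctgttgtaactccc

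Before the groups were compared, the Cy5 mice of MRL/+ were found to stand apart. In replicates 2 and 4 of MRL/+, 35.002% and 21.2% of the spots were well above background, against 56.6% to 70.03% in the other 10 mice, and dark control spots lay at 6.88 and 6.66 times their local background, against 1.26 to 2.74 elsewhere. The loss was tied to position. Uqcrc2, a core protein of complex III, was printed 10 times, 6 times on array rows 1 to 200 of 532. In MRL/+ replicate 2 these spots averaged 7.68 on rows 1 to 200 and 17.8 on the other rows, and in replicate 4 they averaged 5.33 and 25.3. Over the 10 spots the highest signal was 16.9 times the lowest in replicate 4 and 5.86 times in replicate 2. In the other 10 mice the same 10 spots spanned at most 3.45-fold. The spots on rows 1 to 200 averaged lower than the rest in all 12 mice, and the MRL/lpr mice showed it too: they ran from 13.7 to 14.6 on rows 1 to 200 and from 18.5 to 22.4 on the other rows, and fell at row 14 to 6.86 in replicate 4. In Fn14ko the lowest spot of the 10 was 13.3. The highest spot was 2.40 to 3.45 times the lowest in the MRL/lpr mice, 1.54 to 2.05 times in Fn14ko and 1.67 and 2.22 times in the Cy3 mice of MRL/+, so the identical probe gave levels that differed with position in every group.

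**Figure D1:**
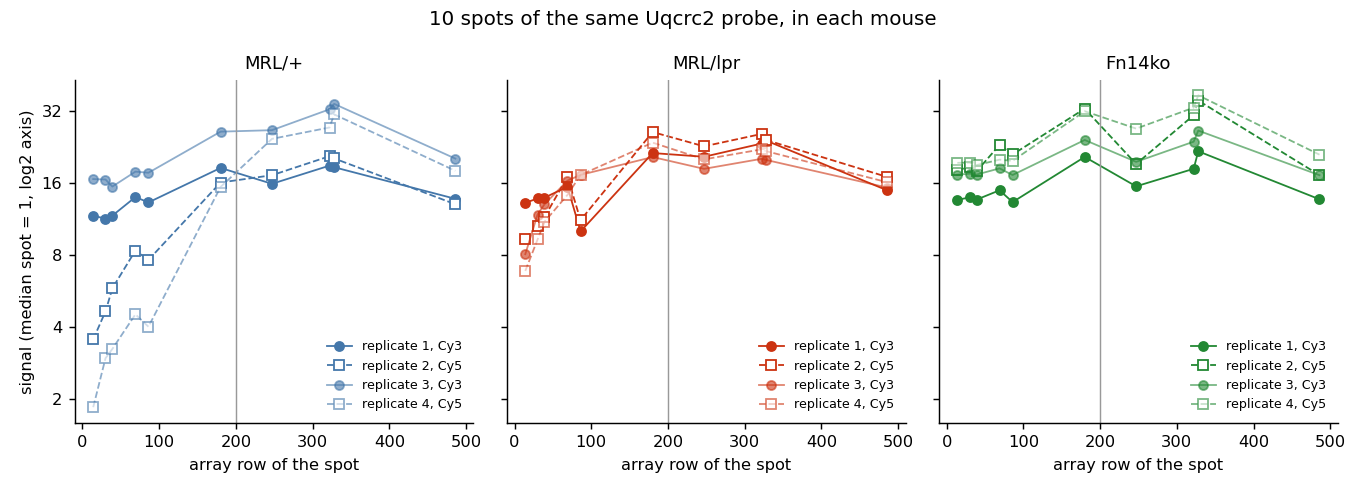
Signal of the 10 identical Uqcrc2 spots (log2 axis, median spot = 1) against their array row, in a panel per group, with filled circles for Cy3 and open squares for Cy5 mice. In the Cy5 mice of MRL/+ the signal falls toward row 1, to 1.84 in replicate 4, a smaller fall is seen in MRL/lpr, to 6.86 in replicate 4, and the grey line marks row 200.

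Members followed the same pattern. The median Cy5 minus Cy3 difference of their spots on rows 1 to 200 was -0.62 and -1.74 in the MRL/+ arrays, against 0.09 and -0.15 on the other rows. Of the 79 members, 22 had every spot on rows 1 to 200, and their median difference was 0.56 between MRL/lpr and MRL/+ and 0.62 between Fn14ko and MRL/+. The 43 members with no spot there had medians of 0.15 and 0.13. Between MRL/lpr and Fn14ko the medians were -0.28 and 0.02. Results are therefore given also for the Cy3 mice alone and with rows 1 to 200 left out.

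Compared with MRL/+, 2 of the 79 quantified members were called higher in MRL/lpr and 0 lower. Both belong to complex IV, Cox6a2 and Cox7c. The share called was 2.53%, against 14.4% of all genes. At an unadjusted limma p under 0.05 there were 12 members higher and 2 lower, 17.7% against 34.7% of all genes. The 4 MRL/lpr mice lay above all 4 MRL/+ mice for 12 members (15.2%, against 10.8% of all genes) and below them for 2 (2.53%, against 13%). The median difference over the members was 0.20 and that over all genes was -0.10. In the Cy3 mice alone these medians were 0.03 and -0.11, with 1 member called higher (Cox6a2) and 2 lower (Ndufa3 and Ndufc1). Without rows 1 to 200, 57 members were tested, with a median of 0.16, and the same 2 were called.

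Single mice moved this count. Without MRL/+ replicate 3, a Cy3 control mouse, 15 members were higher in MRL/lpr and 10 in Fn14ko. The calls over all 17302 genes rose with them, from 2492 to 5551 and from 165 to 2164. The rise is therefore not read as a result about the members. Without MRL/+ replicate 4 or MRL/lpr replicate 1, 0 members were called in either direction. Leaving out Fn14ko replicate 1, which entered through the shared estimate of the spread, gave 4 higher, and leaving out Fn14ko replicate 4 gave 3 higher and 1 lower. Each of MRL/lpr replicates 2 and 3 and Fn14ko replicates 2 and 3, when left out, gave 1. Without the second MRL/+ array 8 were higher, without the first 0 were higher and 2 lower. Over all genes 1406 were higher and 2846 lower without the second, and 740 and 1002 without the first.

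The members' median changed sign with the way signals were made. It was -0.29 with Agilent's processed signal, where 1 member was called higher and 20 lower, -0.06 with loess, where 3 were higher and 15 lower, and -0.04 with the 75th percentile as the scale, where 0 were higher and 7 lower and the median of all genes moved to -0.34. No direction is therefore given for the whole set against MRL/+.

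Between Fn14ko and MRL/+, 0 of 79 members were called, against 0.954% of all genes. At an unadjusted limma p under 0.05 there were 13 higher and 1 lower in Fn14ko, 17.7% against 21.9% of all genes. For 6 members the Fn14ko mice lay above all MRL/+ mice (7.59%, against 7.42% of all genes) and for 1 below (1.27%, against 6.09%). The members' median was 0.25 and that of all genes -0.10, but in the Cy3 mice alone the members' median was -0.0015 and with the processed signal -0.15.

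Between MRL/lpr and Fn14ko, which leaves out the MRL/+ arrays from the means, 0 of 79 members were called, against 4.57% of all genes. At an unadjusted limma p under 0.05 there were 4 higher and 3 lower in MRL/lpr, 8.86% against 18.6% of all genes. MRL/lpr lay wholly above Fn14ko for 4 members (5.06%, against 8.91% of all genes) and wholly below for 6 (7.59%, against 11.3%). The members' median, -0.08, was close to the -0.07 of all genes. In the Cy3 mice alone it was 0.04. The 4 members wholly above were Cox6a2, Cox6b1, Cox6c and Cox7c, all of complex IV. Of the 6 wholly below, 2 were also of complex IV, Cox6b2 and Cox7a2l, with 3 of complex I and 1 of complex V. Both shares were below those of all genes.

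**Figure D2:**
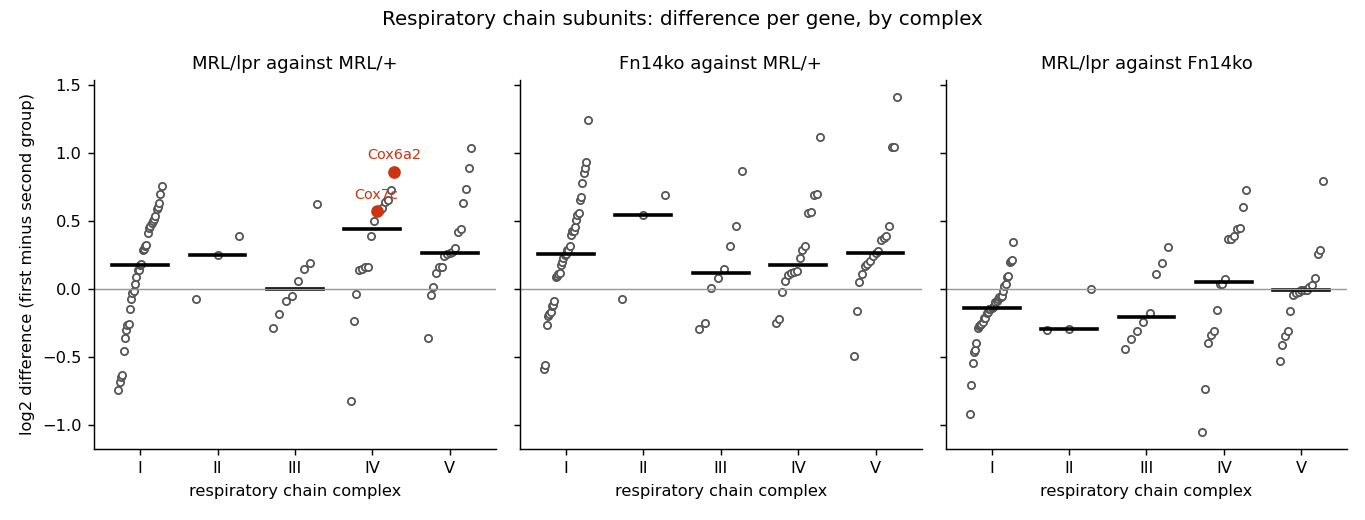
Log2 difference of each quantified member (circles) in the 3 comparisons, by complex, with bars for the median of the complex and filled red circles for the genes called. Against MRL/+ most members of complexes I, IV and V lie above 0 in the signals reported here, while with Agilent's processed signal the median of complex I between MRL/lpr and MRL/+ lies at -0.30 and that of all members at -0.29, and the 2 called genes are in complex IV.

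By complex, the median difference between MRL/lpr and MRL/+ was 0.18 for complex I (35 genes), 0.25 for complex II (3), 0.00 for complex III (8), 0.45 for complex IV (16) and 0.26 for complex V (17). Between Fn14ko and MRL/+ the medians in the same order were 0.26, 0.54, 0.12, 0.18 and 0.27, and between MRL/lpr and Fn14ko they were -0.14, -0.29, -0.21, 0.06 and -0.01. Complex IV was the highest of the 5 in both comparisons of MRL/lpr and was not so in that of Fn14ko with MRL/+. As a contrast within a mouse, the median deviation of complex IV genes from their mean over the 12 mice was set against that of complex I genes. It was higher by 0.07, 0.24, 0.06 and 0.14 in the MRL/lpr mice and differed by -0.02, -0.01, -0.23 and -0.18 in the Fn14ko mice. These groups did not overlap. In MRL/+ it was -0.04, -0.01, -0.31 and 0.14, a range that overlapped both. No test was made over the members.

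The difference between the medians of complex IV and complex I was chosen after the data were seen. It rests on gene names, by which Ndufa4 counts in complex I (mean 10.6 in MRL/lpr, 15.9 in MRL/+ and 10.7 in Fn14ko). The difference of medians was 0.27 between MRL/lpr and MRL/+ and lay between 0.10 and 0.45 in the 37 alternatives, above 0 in each of them. Between MRL/lpr and Fn14ko it was 0.20, with 0.14 to 0.47 in the alternatives, again above 0 in 37 of 37. Between Fn14ko and MRL/+ it was -0.08, with -0.15 to 0.18, and above 0 in 6. Not all alternatives could move these values. They stayed the same with the 75th percentile scale, no dye term, other blocks, the methods' t-test or only the groups compared. Leaving out mice or arrays of the group not compared also left them as they were. In the Cy3 mice alone complex IV had a median of 0.22 and complex I one of 0.01 between MRL/lpr and MRL/+. With the processed signal these medians were 0.05 and -0.30, so the 2 complexes kept their order while complex I changed sign.

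**Figure D3:**
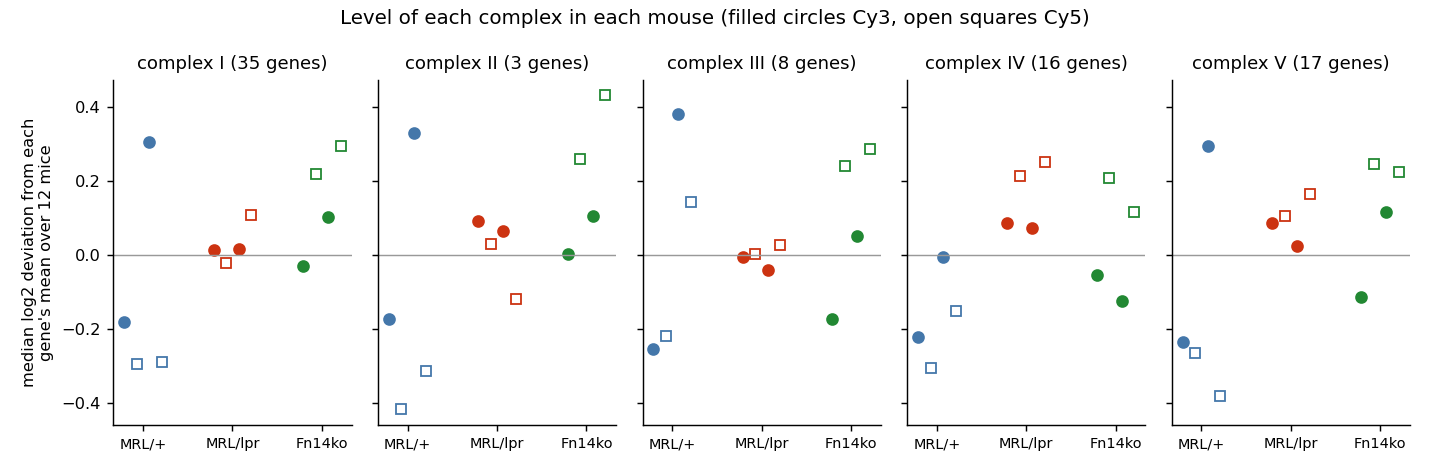
Median log2 deviation of the genes of each complex from their mean over the 12 mice, in each mouse (filled circles Cy3, open squares Cy5; MRL/+ blue, MRL/lpr red, Fn14ko green). For complex IV the 4 MRL/lpr mice lie between 0.07 and 0.25, above the MRL/+ mice, which lie between -0.31 and 0.00. The Fn14ko mice, at -0.12 to 0.21 for complex IV, overlap both groups. For complex I MRL/+ spans -0.29 to 0.31.

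**Figure D4:**
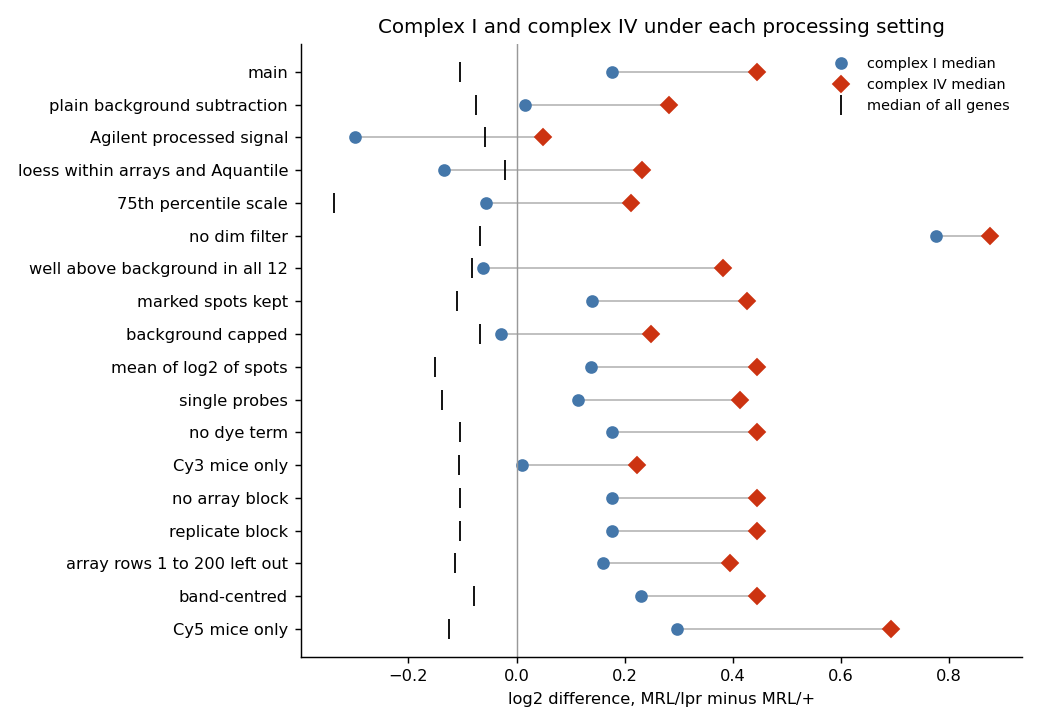
Median log2 difference between MRL/lpr and MRL/+ of complex I (circles), complex IV (diamonds) and all genes (black ticks) under each processing setting. Complex IV lies to the right of complex I in each setting drawn, while complex I lies on either side of 0, from -0.30 to 0.78.

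Complex IV, cytochrome c oxidase, ends the chain. Cox6a2 encodes the form of subunit VIa known from heart and skeletal muscle and, in brain, from parvalbumin interneurons. Its signal was 2.98, 2.34, 2.09 and 2.48 in the MRL/lpr mice, 0.948, 1.18, 1.61 and 1.83 in MRL/+ and 1.65, 1.37, 1.46 and 1.45 in Fn14ko. Every MRL/lpr mouse was above every mouse of the other groups, and the latter overlapped. The spot was well above background in all 12 mice and lay on row 342. The mean was 2.47 ± 0.375 in MRL/lpr, 1.39 ± 0.402 in MRL/+ and 1.48 ± 0.121 in Fn14ko (SD, n = 4 each). MRL/lpr was higher than MRL/+ by 0.86 (SE 0.23, limma adjusted p = 0.0257), 1.82-fold. Its difference from Fn14ko was 0.73 (limma adjusted p = 0.0940), and that of Fn14ko from MRL/+ was 0.13 (limma adjusted p = 0.711).

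The Cox6a2 difference between MRL/lpr and MRL/+ kept its sign in 37 of 37 settings, the reported one included, with values of 0.51 to 1.46. Changes of dye term, block or test, and left-out Fn14ko mice, could not move the difference. Cox6a2 passed the threshold in 28 settings. The difference was 1.01 in the Cy3 mice alone (limma adjusted p = 0.0339) and 0.71 in the Cy5 mice alone (limma adjusted p = 0.0767). The call was lost without MRL/+ replicate 4 (0.95, limma adjusted p = 0.0643), without MRL/lpr replicate 1 (0.75, limma adjusted p = 0.0605), and without the first array of MRL/+ (0.51, limma adjusted p = 0.108) or of MRL/lpr (0.76, limma adjusted p = 0.119). It was also lost with the 75th percentile scale and with no dim filter. Fitting only the groups compared, or the methods' t-test after Benjamini-Hochberg, lost it as well.

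Among the cell markers, Pvalb was higher in MRL/lpr as Cox6a2 was, but the Fn14ko mice lay differently for it, which was not tested. Its signal was 7.78, 7.01, 4.33 and 6.41 in MRL/lpr, 3.16, 3.35, 3.43 and 2.40 in MRL/+ and 4.32, 5.997, 5.23 and 3.62 in Fn14ko, and MRL/lpr was higher than MRL/+ by 1.03 (limma adjusted p = 0.0264, and 0.163 without MRL/+ replicate 4). The Fn14ko mice lay above all MRL/+ mice for Pvalb and overlapped MRL/lpr, whereas for Cox6a2 they overlapped MRL/+ and lay below MRL/lpr. Of the 7 interneuron markers 3 were higher in MRL/lpr (Pvalb, Vip and Npy) and 0 lower, and their summed signal ran from 77.6 to 82.6 in MRL/lpr, 54.4 to 76.3 in MRL/+ and 72.6 to 101 in Fn14ko. Of 10 muscle markers 4 were quantified, and 1 of them, Myh7, was higher, by 0.72 (limma adjusted p = 0.0208, and 0.0990 without MRL/+ replicate 4). Their summed signal was 3.84 to 11.7 in MRL/lpr, 2.64 to 3.69 in MRL/+ and 2.44 to 3.00 in Fn14ko, and the highest sums came from Tnni2, which read 3.04 and 7.49 in MRL/lpr replicates 1 and 2 and 0.171 and 0.259 in replicates 3 and 4. Other markers differed between MRL/lpr and MRL/+ as well, where 14.4% of all genes were called. Blood had 2 of 5 quantified higher in MRL/lpr and a summed signal of 119 to 302 there against 34.6 to 61.9 in MRL/+. Oligodendrocyte markers ran the other way, with 3 of 8 lower and a summed signal of 44.3 to 66.4 in MRL/lpr against 69.1 to 83.2 in MRL/+, and of the 10 excitatory neuron markers 4 were higher and 3 lower. Endothelium had 1 of 6 higher, Flt1, with a summed signal of 15.3 to 18.3 in MRL/lpr and 9.13 to 12.01 in MRL/+. Microglia had 1 of 8 higher, Aif1, general neuron markers 1 of 8 lower, Nefl, choroid plexus 1 of 6 lower, Clic6, and brown fat its only quantified marker lower, Cidea, while astrocyte, lymphocyte and striatum markers had 0 called. Summed signals of choroid plexus markers ran from 6.66 to 99.3 in MRL/lpr, 16.7 to 265 in MRL/+ and 13.3 to 181 in Fn14ko. Those of striatum markers ran from 20.8 to 43.5, 10.7 to 20.7 and 15.8 to 169 in the same order. The part of the cell markers in the result was not tested.

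Cox7c encodes a small subunit present in every tissue. Its signal, the mean of 3 spots, was 8.80, 9.22, 7.98 and 8.02 in MRL/lpr, 5.84, 5.55, 6.45 and 5.09 in MRL/+ and 5.58, 6.48, 6.18 and 6.66 in Fn14ko. The MRL/lpr mice again lay above all others, while MRL/+ and Fn14ko overlapped. The difference from MRL/+ was 0.57 (SE 0.17, limma adjusted p = 0.0430) and that from Fn14ko 0.45 (limma adjusted p = 0.176). Single mice decided the call, since the limma adjusted p ran from 0.0203 to 0.201 as each of the 12 was left out, highest without MRL/+ replicate 4. The call was made in 17 of 37 settings with a positive difference in each, though not all settings could move the difference.

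The 3 Cox7c probes shown above disagreed. The probe at chr13:86184447-86184506 read 11.4, 12.3, 12.2 and 12.2 in MRL/lpr, 6.31, 5.96, 7.44 and 5.87 in MRL/+ and 4.57, 5.597, 6.21 and 6.89 in Fn14ko, and MRL/lpr differed by 0.92 from MRL/+ (limma adjusted p = 0.00961) and by 1.07 from Fn14ko (limma adjusted p = 0.00836). The probe at chr13:86186301-86186360 read 14.6, 14.8, 11.5 and 11.6, then 10.9, 10.1, 11.8 and 8.98, then 11.9, 13.6, 12.3 and 13.0 in the same order of groups. Its differences were 0.33 (limma adjusted p = 0.220) and 0.04 (limma adjusted p = 0.945). The third probe was dim, well above background in 8 of 12 mice. The Cox7c difference thus rested on 1 of its probes.

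For 4 further complex IV genes, Cox6c, Cox7a2, Cox7b and Cox8a, the MRL/lpr mice lay above all MRL/+ mice without passing the threshold. In all 6 of 16 complex IV and 5 of 35 complex I genes lay wholly above, against 10.8% of all genes. Wholly below lay 0 of complex IV and 2 of complex I, against 13% of all genes. Cox6c read 24.9, 30.005, 25.5 and 35.8 in MRL/lpr, 15.9, 16.4, 24.5 and 21.2 in MRL/+ and 15.9, 17.6, 19.99 and 23.1 in Fn14ko. No MRL/lpr mouse overlapped either group. The differences were 0.58 (limma adjusted p = 0.0845) and 0.60 (limma adjusted p = 0.150). Cox8a, the broadly expressed form of subunit VIII, read 125, 179.9, 122 and 181 in MRL/lpr, 79.6, 82.6, 118 and 106 in MRL/+ and 96.3, 139.7, 107 and 126 in Fn14ko. It differed by 0.65 from MRL/+ (limma adjusted p = 0.0528), without overlap, and overlapped Fn14ko. Cox7b, a small subunit, read 27.5, 35.04, 28.7 and 31.3 in MRL/lpr, 20.1, 21.4, 25.9 and 13.3 in MRL/+ and 24.7, 38.1, 26.7 and 28.3 in Fn14ko, and differed by 0.64 from MRL/+ (limma adjusted p = 0.125). Cox6a1, the partner isoform of Cox6a2, read 165 to 260.1 in MRL/lpr, 100.3 to 205 in MRL/+ and 128 to 188 in Fn14ko, with overlap throughout and 0.50 between MRL/lpr and MRL/+ (limma adjusted p = 0.148).

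A pair of complex IV members was highest in Fn14ko. Cox6b2, a testis form of subunit VIb, read 2.03, 2.50, 1.55 and 1.73 in Fn14ko, 1.02, 1.15, 1.48 and 1.03 in MRL/lpr and 1.23, 1.32, 1.02 and 1.20 in MRL/+. Fn14ko overlapped neither group, with 0.69 over MRL/+ (limma adjusted p = 0.112) and -0.73 for MRL/lpr against Fn14ko (limma adjusted p = 0.0703). Cox7a2l, which helps join complexes III and IV into supercomplexes, read 23.6, 25.8, 27.6 and 28.3 in Fn14ko, 20.3, 22.5, 19.9 and 22.3 in MRL/lpr and 16.2, 14.03, 21.9 and 13.7 in MRL/+. Fn14ko was above all other mice, by 0.70 over MRL/+ (limma adjusted p = 0.111), and the MRL/lpr and MRL/+ mice overlapped.

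The isoform pairs did not move together in any called way. Cox4i1, the main form of subunit IV, read 67.9, 43.3, 42.0 and 33.9 in MRL/lpr, 41.8, 15.6, 71.8 and 11.97 in MRL/+ and 61.9, 58.3, 68.1 and 50.8 in Fn14ko. The 2 low control values were the Cy5 mice. Fn14ko differed from MRL/+ by 1.12 (SE 0.44, limma adjusted p = 0.184), and with the processed signal by -0.40. Cox4i2, the lung form known for its induction by low oxygen, was dim at 0.521 to 0.941 over the 12 mice. Cox7a1, the muscle form of subunit VIIa, read 0.938 to 1.96, and Cox7a2, its broadly expressed partner, differed between MRL/lpr and MRL/+ by 0.60 (limma adjusted p = 0.167). Cox8b, the muscle form of subunit VIII, was dim at 0.175 to 0.725 and had the largest complex IV difference between MRL/lpr and Fn14ko, -1.05 (SE 0.46, limma adjusted p = 0.243), with overlapping groups. Cox5a, a matrix-side subunit, differed by -0.24 between MRL/lpr and MRL/+ (limma adjusted p = 0.529).

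**Figure D5:**
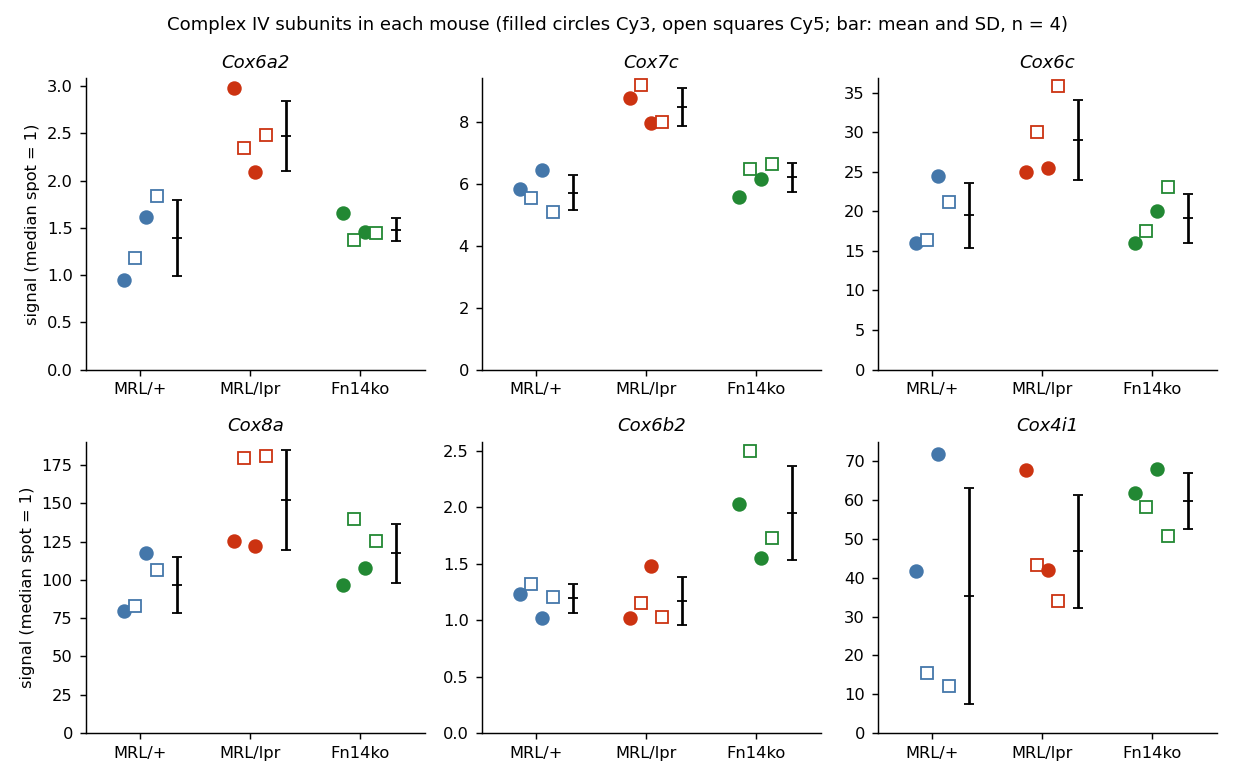
Signal (median spot = 1) of 6 complex IV genes in each mouse, filled circles for Cy3 and open squares for Cy5, with the mean and SD of 4 mice beside each group. For Cox6a2, Cox7c and Cox6c the MRL/lpr mice lie above both other groups, for Cox6b2 Fn14ko does, and for Cox4i1 the Cy5 mice of MRL/+, at 15.6 and 11.97, lie below every other mouse.

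Complex I oxidises NADH. The core members named here did not pass the threshold in any comparison. Ndufs1, which carries iron-sulfur clusters, differed between MRL/lpr and MRL/+ by -0.01, Ndufs7 by -0.36 and Ndufv1, which binds the flavin, by -0.14, with limma adjusted p of 0.325 or more. Among accessory subunits Ndufa9, which binds NADPH, read 8.34, 8.50, 8.11 and 8.61 in MRL/lpr, 7.64, 10.2, 8.42 and 11.09 in Fn14ko and 5.84, 6.12, 5.96 and 5.55 in MRL/+. The 8 mice that carry lpr lay above the 4 that do not. The differences were 0.52 (SE 0.17, limma adjusted p = 0.0640) and 0.66 (limma adjusted p = 0.0881). Ndufs4 had the same order, with 9.95 to 11.5 in MRL/lpr, 9.25 to 11.9 in Fn14ko and 7.24 to 8.71 in MRL/+ (0.41 and 0.43, limma adjusted p = 0.118 and 0.194).

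Lower signals than in MRL/+ were also seen in complex I. Ndufa11, a membrane arm subunit, read 2.53, 1.74, 2.40 and 2.82 in MRL/lpr, 2.39, 2.42, 2.36 and 3.10 in Fn14ko and 3.23, 3.15, 4.10 and 4.73 in MRL/+. Both lpr groups lay below all control mice. The differences were -0.68 (SE 0.23, limma adjusted p = 0.0606) and -0.56 (limma adjusted p = 0.192). The first passed the threshold in 13 of 37 settings and was below 0 in all 37, not all of which could move it. Ndufc1, a small membrane subunit, differed by -0.74 (limma adjusted p = 0.101), with 4.02 to 7.20 in MRL/lpr overlapping 6.31 to 11.7 in MRL/+. It was called lower in 11 of the 36 settings that tested it. The highest complex I difference between MRL/lpr and MRL/+, 0.76 for Ndufb9 (limma adjusted p = 0.127), turned to -0.40 with the processed signal. That between Fn14ko and MRL/+, 1.24 for Ndufb10 (limma adjusted p = 0.198), turned to -0.22.

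Ndufa3 had the largest complex I difference between MRL/lpr and Fn14ko. It read 9.66, 11.7, 7.22 and 6.65 in MRL/lpr, 16.2, 21.5, 14.2 and 14.1 in Fn14ko and 15.7, 13.5, 18.3 and 8.13 in MRL/+. MRL/lpr lay below all Fn14ko mice and overlapped MRL/+. The difference was -0.92 (SE 0.32, limma adjusted p = 0.136). Of its 3 probes, that at chr7:3571695-3571754 of mm9 gave -1.30 (limma adjusted p = 0.0594) and that at chr7:3571590-3571649 gave -0.24 (limma adjusted p = 0.782), so the probes disagreed.

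Complex II links the citric acid cycle to the chain. Sdhb, its iron-sulfur subunit, read 13.2, 12.3, 12.6 and 11.09 in MRL/lpr, 12.6, 17.7, 14.5 and 16.2 in Fn14ko and 10.8, 7.55, 16.3 and 5.84 in MRL/+. The groups overlapped, and the control mice spanned the range of the others. The differences from MRL/+ were 0.39 (limma adjusted p = 0.401) and 0.69 (limma adjusted p = 0.241), and both turned negative with the processed signal (-0.45 and -0.16). Between MRL/lpr and Fn14ko Sdhb differed by -0.30 (limma adjusted p = 0.704).

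Complex III passes electrons to cytochrome c. Uqcrfs1, the Rieske iron-sulfur protein, read 8.11, 6.02, 8.94 and 7.79 in MRL/lpr, 8.40, 11.11, 9.61 and 12.8 in Fn14ko and 8.53, 7.58, 13.1 and 8.93 in MRL/+, and its -0.44 between MRL/lpr and Fn14ko (limma adjusted p = 0.387) was the largest of complex III there. Uqcrc1, a core protein, differed by -0.05 between MRL/lpr and MRL/+ (SE 0.41), where MRL/+ ran from 9.58 to 45.7. The largest differences from MRL/+, those of the small subunit Uqcr11, were 0.63 and 0.87 (limma adjusted p = 0.343 and 0.277), with the Cy5 control mice at 8.98 and 5.11 and the Cy3 control mice at 24.1 and 34.03. In the Cy3 mice alone they were -0.14 and -0.14, and with the processed signal -0.65 and -0.57. No complex III member separated any 2 groups.

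Complex V, the ATP synthase, had no called member. Atp5a1, the alpha subunit of its catalytic head, read 19.9, 14.2, 12.5 and 18.3 in MRL/lpr, 18.8, 22.2, 25.7 and 25.9 in Fn14ko and 14.6, 4.67, 23.9 and 3.36 in MRL/+. Again the low control values were the Cy5 mice. Fn14ko differed from MRL/+ by 1.42 (SE 0.58, limma adjusted p = 0.195), the largest value of any member. Atp5j, of the peripheral stalk, differed by 1.04 between MRL/lpr and MRL/+ (limma adjusted p = 0.119), by -0.11 with the processed signal and by -0.95 without rows 1 to 200, where a dim probe remained. Atp5b, the catalytic beta subunit, ran against Atp5a1, with 63.6, 108, 60.5 and 105 in MRL/lpr, 30.2, 52.0, 42.6 and 73.3 in Fn14ko and 41.9, 64.1, 77.7 and 91.7 in MRL/+. The Atp5b groups overlapped. MRL/lpr differed from Fn14ko by 0.79 (SE 0.24, limma adjusted p = 0.0878, exact permutation p = 0.0857), a value above 0 in 37 of 37 settings and called in 12. Not all of these settings could move the difference. The 3 genes for the membrane ring, Atp5g1, Atp5g2 and Atp5g3, differed between MRL/lpr and MRL/+ by 0.12, 0.63 and 0.42, with limma adjusted p of 0.153 or more.

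Control mice were the most variable for these genes. Over the 79 members the SD of log2 signal had a median of 0.355 among MRL/+ mice, against 0.160 for MRL/lpr and 0.232 for Fn14ko mice. Over all genes these medians were 0.384, 0.225 and 0.260. The largest single SD was that of Atp5e in MRL/+, 1.34. The dimming in the Cy5 control mice moved with this spread, and its part was not tested.

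The genes that build the complexes were followed from lists. Of 51 assembly factors 46 were quantified. In MRL/lpr 2 were higher than in MRL/+ and 6 lower, a share of the 46 near the 14.4% called over all genes, so the genes below are described singly and not as a result for the list. There were 0 called in the other comparisons, with medians of -0.07, -0.02 and -0.16. Timmdc1, which builds the membrane arm of complex I, read 1.45, 1.53, 1.53 and 1.52 in MRL/lpr, 2.58, 2.73, 2.49 and 2.45 in MRL/+ and 1.90, 2.30, 1.73 and 1.60 in Fn14ko. The 3 groups did not overlap, with Fn14ko between the others. MRL/lpr was lower than MRL/+ by -0.77 (SE 0.16, limma adjusted p = 0.00843), and the call held as each mouse was left out. Sco2, a copper chaperone of complex IV, was lower by -0.72 (limma adjusted p = 0.0169, and 0.102 without MRL/+ replicate 4), with 1.43 to 1.89 in MRL/lpr and 2.63 to 3.12 in MRL/+. The other 4 lower genes were Cox10 and Cox15, which make heme A for complex IV, Taco1, which helps translate a mitochondrial complex IV subunit, and Sdhaf3, a complex II factor, at -1.46, -0.75, -1.36 and -0.65. All 4 were dim, under 1 in every mouse, and each lost the call without MRL/+ replicate 4. Higher in MRL/lpr were Uqcc2, a complex III factor, by 0.66 (limma adjusted p = 0.0249, and 0.134 without MRL/+ replicate 4), and Ndufaf5, a complex I factor, by 0.87 (limma adjusted p = 0.0394, and 0.212 without that mouse). Sdhaf3 turned to 0.54 with the processed signal.

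Of the 13 subunits encoded in mitochondrial DNA, 9 were on the array and 8 were quantified, with 0 called in any comparison and medians of 0.25, 0.01 and 0.31 in the order MRL/lpr against MRL/+, Fn14ko against MRL/+ and MRL/lpr against Fn14ko. Of 17 quantified electron carriers and other chain genes outside the name pattern, 0 were called. Of 15 quantified regulators of mitochondrial biogenesis 2 were called between MRL/lpr and MRL/+, both higher in the former, near the 14.4% of all genes, and neither passed in the other comparisons. Esrra, a nuclear receptor that drives oxidative metabolism genes, read 8.81, 8.94, 7.41 and 8.55 in MRL/lpr, 4.83, 4.48, 5.39 and 3.11 in MRL/+ and 5.68, 6.27, 6.49 and 7.16 in Fn14ko. The groups did not overlap. The Esrra difference was 0.95 (SE 0.22, limma adjusted p = 0.0164), 0.74 without MRL/+ replicate 4 (limma adjusted p = 0.0628) and 0.08 with the processed signal (limma adjusted p = 0.747). Polg, the mitochondrial DNA polymerase, was higher by 0.49 (limma adjusted p = 0.0411, and 0.170 without MRL/+ replicate 4), and turned to -0.34 among spots well above background in all 12 mice. The coactivator Ppargc1a and the factor Nrf1 differed by -0.25 and -0.20 (limma adjusted p = 0.322 and 0.401).

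In neighbouring pathways, the genes called between MRL/lpr and MRL/+ are given by list, beside the 14.4% called over all genes. Of 17 citric acid cycle and pyruvate dehydrogenase genes 1 was higher, Suclg2, of 16 glycolytic genes Pfkp was higher and Pfkl lower, of 9 carriers and porins Slc25a22 was lower, and of 12 antioxidant enzymes Cat was lower. The medians of these 4 lists were 0.17, 0.20, 0.10 and 0.10. Only Pfkl was called in another comparison, lower in MRL/lpr than in Fn14ko.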

How the data were processed

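RNA from the cortex of 12 mice was hybridised to 6 dual-colour Agilent arrays, and mice were grouped by their labels. The authors deposited the output of Agilent Feature Extraction (12.1.0.3 per the file headers), with no values pooled. Its mean spot and local background intensities, in linear units, were used here. The deposited processed intensity, already background-subtracted, detrended and dye-normalised, served as an alternative. The deposited quality marks, coded 0 or 1 (unit: other), were used as a filter. Probe coordinates are mm9 per the file headers.

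Spots marked as outliers in any channel (1952 of 43020), or under 2 times local background in any mouse (17781), were dropped. Backgrounds were corrected by normexp (offset 50), each mouse was divided by its median spot, and spots of a gene were averaged. Log2 values of 17302 genes were fitted with limma 3.58.1 in R 4.3.3, with terms for group and dye, array as a random block (correlation 0.316) and a mean-variance trend, and p was adjusted by Benjamini-Hochberg. The code was tested on simulated data. The number of arrays limits the precision, and the p-values measure only the spread between these mice.

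The members and lists were chosen with earlier results of these data known. Named were members past the threshold, the largest difference per complex and comparison, and a set of role genes. Others were named after their values were seen. 1 role gene is not reported here. Alternatives covered background, scale, filters, probes, dye, blocks, left-out mice and arrays and the methods' t-test. Leaving out rows 1 to 200, centring bands of 28 rows, the Cy5 mice alone and the contrast of complex IV with complex I were added after the data were seen.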

Additional observations from a re-analysis of the deposited data

Results flagged for a closer look

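Among 132 groups of 4 mice, from 44 genes named in the text, 7 held a mouse that stood far from the other 3, where about 1 in 20 would by chance. Atp5g2 read 80.7 in MRL/lpr replicate 2, against 27.6 to 33.97 in the other MRL/lpr mice. Cox5a read 48.8 in MRL/+ replicate 3, against 28.2 to 29.98. Cox7a2 read 25.9 in Fn14ko replicate 2, against 12.5 to 14.1. Ndufa11 read 3.10 in Fn14ko replicate 4, against 2.36 to 2.42. Among assembly factors, Ndufaf5 read 1.87 in Fn14ko replicate 2, against 1.59 to 1.63. Sco2 read 1.43 in MRL/lpr replicate 2, against 1.84 to 1.89, and Timmdc1 read 1.45 in MRL/lpr replicate 1, against 1.52 to 1.53.

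Cox8c, a testis form of subunit VIII left out of the comparisons because its only spot was dim, was well above background in 4 of 4 MRL/lpr mice and in 0 of 4 in each other group. It was picked by this pattern, and how many dim spots of all genes show the same was not counted. The spot lay on row 123, among the rows where the Cy5 mice of MRL/+ lost signal. Its foreground intensity, before correction, was 127 and 111 in those Cy5 mice and 117 and 143 in the Cy5 mice of MRL/lpr, and in the Cy3 mice it was 39.6 and 37.4 in MRL/+ and 166 and 210.0 in MRL/lpr. Dark spots stood at 6.88 and 6.66 times background in the Cy5 mice of MRL/+, and the part of this in the difference was not tested. For this gene the signal was taken after loess and Aquantile with dim spots kept, unlike the signals above. Its mean on that scale was 0.879 in MRL/lpr, at least 1.22-fold higher than in MRL/+ and at least 1.86-fold higher than in Fn14ko. The bound is the lowest signal of probes well above background or the measured one, whichever is higher. It uses the mark by which the gene was picked and is no separate evidence. On the median scale used elsewhere, with dim spots kept, the differences were 0.35 and 1.02 (limma adjusted p = 0.541 and 0.534).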

How the results depend on the processing

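The difference between the complex IV and complex I medians stayed above 0 in 37 of 37 alternatives in both comparisons of MRL/lpr, and Cox6a2 stayed higher in MRL/lpr than in MRL/+ in each. Alternatives of dye term, block or test, and left-out mice of the group not compared, could not move these values. Counts of members called did not hold. In the order MRL/lpr against MRL/+, Fn14ko against MRL/+ and MRL/lpr against Fn14ko they were 2, 0 and 0 as reported, 12, 8 and 6 with plain background subtraction, 21, 4 and 6 with Agilent's processed signal, 18, 6 and 9 with loess and Aquantile, 7, 1 and 2 with the 75th percentile scale, 11, 5 and 7 among spots well above background in all 12 mice, 10, 6 and 5 with background capped, 13, 5 and 4 with no array block, and 15, 8 and 13 with the methods' t-test, unadjusted. Between MRL/lpr and MRL/+, and then between MRL/lpr and Fn14ko, they were 6 and 3 with single probes, 4 and 1 with no dye term, 0 and 2 with only the groups compared, 4 and 2 with the methods' t-test after Benjamini-Hochberg, and 4 and 3 with bands centred. With no dim filter the first count was 0, and with the Cy5 mice alone the first counts were 18 and 23. Without the first MRL/+ array the count between MRL/lpr and Fn14ko was 2, and without the second it was 2 and that between MRL/lpr and MRL/+ 8. Without the first MRL/lpr array the count against MRL/+ was 0, and without the second it was 1, with 1 against Fn14ko. Counts over all genes moved as well, so member counts are not read as a result about the members. Between MRL/lpr and MRL/+, 1044 genes were higher and 1448 lower as reported. The numbers were 2072 and 3026 with plain background subtraction, 1124 and 1938 with the processed signal and 2022 and 2686 with loess. As each mouse was left out, the counts of members ran from 0 to 15, 0 to 10 and 0 to 1. Those over all genes ran from 781 to 5551, 8 to 2164 and 357 to 1002. Each fit without a mouse used a shared estimate of the spread per gene over all mice left, the lone mouse of an array included.

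The members' median between MRL/lpr and MRL/+ was 0.20 as reported, -0.29 with the processed signal, -0.058 with loess, -0.038 with the 75th percentile, 0.79 with no dim filter, -0.013 among spots well above background, 0.39 without the second MRL/+ array and 0.42 in the Cy5 mice alone. Between Fn14ko and MRL/+ it was 0.25 as reported, -0.15 with the processed signal, 0.0030 with the 75th percentile, 0.96 with no dim filter, -0.0015 in the Cy3 mice alone and 0.48 in the Cy5 mice alone. Between MRL/lpr and Fn14ko it was -0.21 with no dim filter. The causes were not tested. The medians ran from 0.11 to 0.36, 0.17 to 0.36 and -0.17 to 0.03 as each mouse was left out.

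With the processed signal the sign turned for Atp5j (-0.11), Ndufb9 (-0.40), Sdhb (-0.45), Uqcr11 (-0.65) and Sdhaf3 (0.54) between MRL/lpr and MRL/+, and for Cox4i1 (-0.40), Ndufb10 (-0.22), Sdhb (-0.16) and Uqcr11 (-0.57) between Fn14ko and MRL/+. In the Cy3 mice alone it turned for Sdhb (-0.038) and Uqcr11 (-0.14) between MRL/lpr and MRL/+ and for Uqcr11 (-0.14) between Fn14ko and MRL/+. Polg turned to -0.34 among spots well above background, and Atp5j to -0.95 without rows 1 to 200. Cox6a2 between Fn14ko and MRL/+ turned to -0.12 with the 75th percentile, -0.094 among spots well above background, -0.034 without MRL/+ replicate 1 (-0.034 to 0.22 as each mouse was left out), -0.22 without the first MRL/+ array and -0.064 in the Cy5 mice alone.

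Replicate numbers were not taken to pair the mice. Correlations of same-numbered mice ran from -0.13 to 0.72. Those of differently numbered mice were not computed, so these values cannot decide whether numbers pair the mice. With the replicate number as a block, 13, 4 and 4 members were called. Over all genes 2492, 165 and 790 were called as reported, with ranges of 22 to 5597, 0 to 4787 and 32 to 2840 over the alternatives with adjusted p, and the 75th percentile moved the share of higher calls between MRL/lpr and MRL/+ from 41.9% to 23.9%. Slide and group could not be told apart in any setting, and signal over background limited the dim genes and the Cy5 mice of MRL/+.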
